A study of Mus musculus with 2 samples.

Results

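The genes described here carry pyruvate into the mitochondrion and burn it there: the carrier genes Mpc1 and Mpc2, the genes of the pyruvate dehydrogenase complex Pdha1, Pdhb, Dlat and Dld, and the kinase genes Pdk1, Pdk2, Pdk3 and Pdk4. They were chosen by name, and all 10 were read in both libraries, among 15048 annotated genes with a read. Models of any class that lie on Mpc1, or on Mpc1-ps, its processed copy elsewhere in the genome, were collected by position as well. The material was heart of B6CASTF1/J mice, an F1 hybrid strain, all female and 14 days old, with no treatment and no altered allele named in the labels. Total RNA was read as complementary DNA by long-read sequencing, in 2 libraries of 1 group, replicate 1 and replicate 2. No condition was compared, so the values describe these libraries and the difference between them. The libraries carry biological replicate numbers that the labels do not clearly tie to separate animals, so p-values and intervals cover counting error only, and the libraries may differ for technical reasons.

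Pyruvate, the end product of glycolysis, crosses the inner mitochondrial membrane through a carrier built of the MPC1 and MPC2 proteins. Inside, the pyruvate dehydrogenase complex turns it into acetyl-CoA, the fuel of the citric acid cycle. The complex is switched off when a kinase of the PDK family phosphorylates its alpha subunit, and switched on again by a phosphatase. In the heart this switch is known as a point where the use of carbohydrate gives way to the use of fatty acids.

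Levels are given as CPM, with the reads of a gene scaled to its library's total, and every class of model counted except the genomic class, reads within a gene that match no splicing pattern. A read stands for 1 molecule whatever its length. The totals behind CPM were 858071 reads in replicate 1 and 926560 in replicate 2, so that a read was worth 1.17 CPM in replicate 1 and 1.08 in replicate 2. Where no read was counted the level could reach 3.50 CPM in replicate 1 and 3.24 in replicate 2, the worth of 3 reads. A gene is called detected from 3 reads in each library. All 9 cardiomyocyte markers met this, with a sum of 48076 CPM in replicate 1 and 49110 in replicate 2. In replicates 1 and 2, the 6 adipocyte markers summed to 193 and 243 CPM and the 5 erythroid markers to 16586 and 14283 CPM. In the same order, the 5 fibroblast markers summed to 6455 and 6292 CPM. The 5 endothelium markers summed to 475 and 492 CPM and the 5 macrophage markers to 237 and 183 CPM. Of 7 skeletal muscle markers 2 were detected, Acta1 and Ckm, with a list sum of 11238 CPM in replicate 1 and 10424 in replicate 2. Myh1, Myh2, Myh4, Tnnt3 and Mylpf were not, and whether that sum comes from skeletal muscle was not tested. Of 4 liver markers none was detected. Of 4 lung markers 1 was, with a sum over the lung list of 138 CPM in replicate 1 and 8.63 in replicate 2. The part of these other cells in the results below was not tested. In tissue RNA, fewer cells of a type and less RNA per cell cannot be told apart.

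Both carrier genes were read at between 287 and 427 CPM. Mpc1 (ENSMUSG00000023861.17; mm10 chromosome 17, 8282904 to 8297661, plus strand) had 246 reads in replicate 1 and 297 in replicate 2, or 287 and 321 CPM. Mpc2 (ENSMUSG00000026568.6; chromosome 1, 165460637 to 165481214, plus strand) had 271 and 396 reads in replicates 1 and 2, or 316 and 427 CPM. Their CPM ranges over the libraries overlapped. The proteins work as a heterodimer, and Mpc1 supplied 47.6% of the reads of the pair in replicate 1 (exact Clopper-Pearson interval at 95%, 43.2 to 52.0) and 42.9% in replicate 2 (39.1 to 46.6).

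Almost no Mpc1 read was placed on an annotated Mpc1 transcript. GENCODE M21 lists 8 transcripts of the gene, and annotated models took 6 reads in replicate 1 and 5 in replicate 2. Counted on annotated models alone, and scaled to the reads on them, Mpc1 would stand at 7.91 CPM, against 304 with every class but genomic. Its share of the carrier reads would be 1.73% on average. The leading form was an unannotated combination of 4 exons that are all known, with 237 of 243 usable reads in replicate 1, or 97.5%, and 284 of 289 in replicate 2, or 98.3%. Usable reads are those on annotated forms and on unannotated spliced forms with at least 5 reads in each library. Among the 4348 genes that reached 20 usable reads in both libraries, 188, or 4.32%, had an unannotated leading form, and in 37 of these its mean share was at least 90%. Mpc1 was the only one of the 9 genes of the set with enough reads whose leading form was unannotated.

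The form lacks an annotated coding exon of 4 bases. In the transcript ENSMUST00000155364.7 that exon lies at 8293415 to 8293418, and in ENSMUST00000046754.14 an exon of the same length lies at 8296527 to 8296530, with 4 bases between it and the next exon. The leading form has in its place 1 intron of 12573 bases, from 8283962 to 8296534. The sequences at this point are shown because the small exon is what sets the introns of the leading form apart from these transcripts. They run 5′ to 3′, from the GENCODE M21 transcripts, with the 4 bases of the small exon in capitals, and the line of the leading form is the first sequence with those bases left out.
ENSMUST00000155364.7: actatctcatgagTACGcacttctggggcc
ENSMUST00000046754.14: actatctcatgagTACTcacttctggggcc
4-exon form: actatctcatgagcacttctggggcc
Mpc1-ps: actatctcatgagTACGcacttctggggcc

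The bases in capitals are positions 72 to 75 of the coding sequence of ENSMUST00000155364.7, counted from 1 at the A of the start codon. That coding sequence has 330 bases, stop codon included. With the 4 bases left out of it, the first stop codon in frame ends at base 129. No read of either library was placed on a model with either of these small exons, with 241 reads in replicate 1 and 291 in replicate 2 on models spanning the place. The annotated transcript ENSMUST00000124023.7, with 4 reads in replicate 1 and 3 in replicate 2, holds an exon of 81 bases that starts where the first of them does. A rarer unannotated model of 4 exons and 924 bases had 2 reads in replicate 1 and 3 in replicate 2. Its shortest exon has 105 bases, against 97 in the leading form. That length would fit the second small exon joined to the next exon across the 4 bases between them. The tables give where reads aligned and not their bases, so whether the reads hold the 4 bases was not tested. Other annotated exons of such size were empty too. Among 10 annotated exons of at most 5 bases with at least 20 spanning reads in each library, the 2 of Mpc1 included, 0 had an including read in both libraries, and 0 of 16 exons of 6 to 9 bases did. Of 20 exons of 10 to 14 bases 1 did, and of 400 exons of 15 to 30 bases 280 did. The other 8 smallest exons belong to Gramd1a, Sept7, Mybpc3, Nsmaf, Map4k5 and Clasp1.

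**Figure D1:**
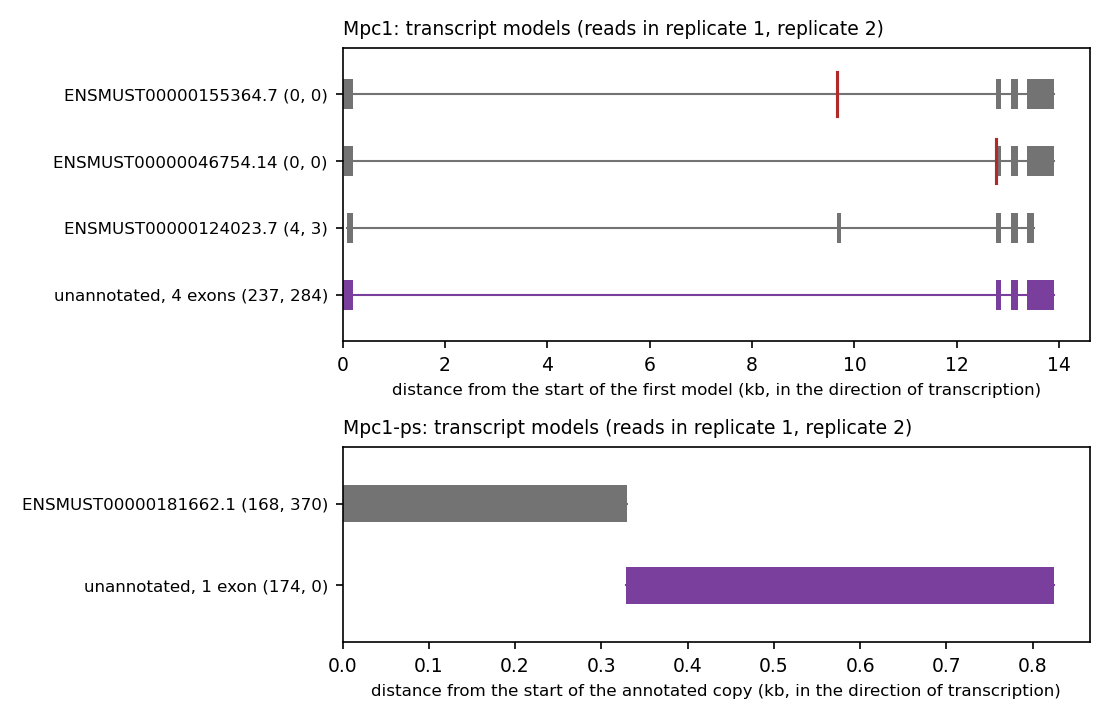
Transcript models at Mpc1 (above) and at its copy Mpc1-ps (below), with boxes for exons and red ticks for the 4-base exons. Reads in replicate 1 and replicate 2 are in brackets. Distance in kb runs in the direction of transcription, from the start of the first model drawn at Mpc1 and of the annotated copy. The 4-exon form holds 237 and 284 reads and the models with a 4-base exon hold none, and at the copy 174 reads of replicate 1 lie on an unannotated model beside the annotated one.

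Mpc1-ps (ENSMUSG00000091498.4; chromosome 12, 110858565 to 110858894, minus strand) is annotated as a processed pseudogene of 1 exon, within the gene Zfp839 on the opposite strand. Its 330 bases differ from the coding sequence of ENSMUST00000155364.7 by 1 base, G41A in coding positions, an identity of 99.7%. The sequences around that base, in capitals, show how little separates the loci.
Mpc1: cggcggactatgtccGgagcaaggacttcc
Mpc1-ps: cggcggactatgtccAgagcaaggacttcc

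Unlike the leading Mpc1 form, the copy holds the 4 bases at positions 72 to 75, as its line among the sequences above shows. By name, Mpc1-ps had 168 reads in replicate 1 and 370 in replicate 2, or 196 and 399 CPM, a log2 ratio of replicate 1 over replicate 2 of -1.03 (95% interval -1.30 to -0.76; two-sided exact binomial test given the library totals, adjusted p = 1.67e-12). In replicate 1, however, a further 174 reads lay on an unannotated model of 1 exon and 496 bases on the same strand, from 110858070 to 110858565, which shares its last base with the copy and carries no gene name. In replicate 2 no such model overlapped the copy. Models beside the copy without overlap were not collected. The count by position takes in the 174 reads only through that 1 shared base. By position, the copy had 342 reads in replicate 1 and 370 in replicate 2, or 398.6 and 399.3 CPM, and the log2 ratio was -0.0027 (95% interval -0.22 to 0.21; exact binomial test, unadjusted p = 1). That model extends 495 bases past the copy, where 499 bases follow the stop codon in ENSMUST00000155364.7 and 495 in ENSMUST00000046754.14.

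Over Mpc1 and its copy by position, Mpc1 held 42.1% of the reads in replicate 1 (exact interval 38.1 to 46.2) and 44.6% in replicate 2 (40.8 to 48.5). With the reads of the copy counted as Mpc1, the Mpc1 share of the carrier reads would be 65.7% on average, against 45.2% without them. Whether reads at the copy were transcribed there or from Mpc1 was not tested, since the tables hold no read sequence. The level of Mpc1 is uncertain by that amount. Copies with far fewer reads exist for other genes of the set. Among annotated pseudogenes with at least 80% identity over at least 200 bases, Gm6123, a copy of Pdhb with 97.0% identity over 1079 bases, had 2 reads in replicate 1 and 4 in replicate 2. Gm20428, another copy of Mpc1, had 1 read in replicate 1 and 0 in replicate 2. No read lay on Gm8219 of Mpc1, AC154779.3 or Gm31931 of Mpc2, or 4930519F09Rik of Pdha1, the last with 90.1% identity over 1118 bases.

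Pdha1 was the most read gene of the set. It encodes the alpha subunit of the enzyme that removes carbon dioxide from pyruvate and is the protein that the kinases phosphorylate. Pdha1 (ENSMUSG00000031299.10; chromosome X, 160122209 to 160138413, minus strand) had 1573 reads in replicate 1 and 1539 in replicate 2, or 1833 and 1661 CPM. By mean CPM it ranked 56 among annotated genes. Pdhb (ENSMUSG00000021748.9; chromosome 14, 8165996 to 8173025, minus strand) encodes the beta subunit that pairs with it, and had 833 and 973 reads in replicates 1 and 2, or 971 and 1050.1 CPM. Pdha1 thus gave 65.4% of the reads of these subunits in replicate 1 (exact interval 63.4 to 67.3) and 61.3% in replicate 2 (59.3 to 63.2).

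That order did not hold in both libraries when reads were divided by the length of the model they were on. Since a read stands for 1 molecule, values divided by length, here and below, are not counts of molecules. The leading model of Pdha1 has 2848 bases and that of Pdhb 1513. Per kb of model, on the CPM scale, Pdha1 stood at 649 in replicate 1 and 588 in replicate 2, and Pdhb at 646 in replicate 1 and 704 in replicate 2. The genes were thus nearly level in replicate 1, Pdhb was higher in replicate 2, and their ranges overlapped. The Pdha1 share was then 47.8% on average.

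Dlat and Dld supply the remaining catalytic steps. Dlat (ENSMUSG00000000168.9; chromosome 9, 50634633 to 50659780, minus strand) encodes the acetyltransferase that forms the core of the complex and passes the acetyl group to coenzyme A. It had 1268 reads in replicate 1 and 1376 in replicate 2, or 1478 and 1485 CPM, the closest agreement between the libraries within the set. Dld (ENSMUSG00000020664.10; chromosome 12, 31331277 to 31351453, minus strand) encodes the dehydrogenase that reoxidises the lipoyl arm, which the complexes for 2-oxoglutarate and branched-chain 2-oxoacids also use. Its reads numbered 631 in replicate 1 and 640 in replicate 2, or 735 and 691 CPM.

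Among the kinase genes, Pdk2 and Pdk4 held nearly all reads. Pdk2 (ENSMUSG00000038967.13; chromosome 11, 95026258 to 95041354, minus strand), a widely expressed kinase of the family, had 593 reads in replicate 1 and 542 in replicate 2, or 691 and 585 CPM. Pdk4 (ENSMUSG00000019577.6; chromosome 6, 5483351 to 5496309, minus strand), known to be induced by fasting and by fatty acids in muscle and heart, had 437 and 544 reads in replicates 1 and 2, or 509 and 587 CPM. Their CPM ranges overlapped narrowly. Pdk2 made up 57.6% of the reads of this pair in replicate 1 (exact interval 54.5 to 60.6) and 49.9% in replicate 2 (46.9 to 52.9), so Pdk2 led in replicate 1 and the genes were level in replicate 2.

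Pdk1 and Pdk3 were low. Pdk1 (ENSMUSG00000006494.11; chromosome 2, 71873224 to 71903858, plus strand), a target of the hypoxia-inducible factor, had 80 reads in replicate 1 and 56 in replicate 2, or 93.2 and 60.4 CPM. Pdk3 (ENSMUSG00000035232.8; chromosome X, 93764607 to 93832201, minus strand) had 12 and 14 reads in replicates 1 and 2, or 14.0 and 15.1 CPM, above the limit for no read. Of all kinase reads, 1122 in replicate 1 and 1156 in replicate 2, Pdk1 took 7.13% in replicate 1 and 4.84% in replicate 2, and Pdk3 took 1.07% and 1.21%. Together the kinases gave 18.9% of the reads of the 10 genes in replicate 1 and 18.1% in replicate 2. Divided by model length, where the leading Pdk1 model has 5185 bases and that of Pdk2 2246, Pdk2 took 61.0% of the kinase total on average, Pdk4 34.2%, Pdk1 3.33% and Pdk3 1.46%. By mean share the order of the kinases was the same on both scales. In replicate 2 alone, Pdk4 stood at 587 CPM and Pdk2 at 585. Per kb of model in that library, on the CPM scale, Pdk2 stood at 267 and Pdk4 at 173.

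**Figure D2:**
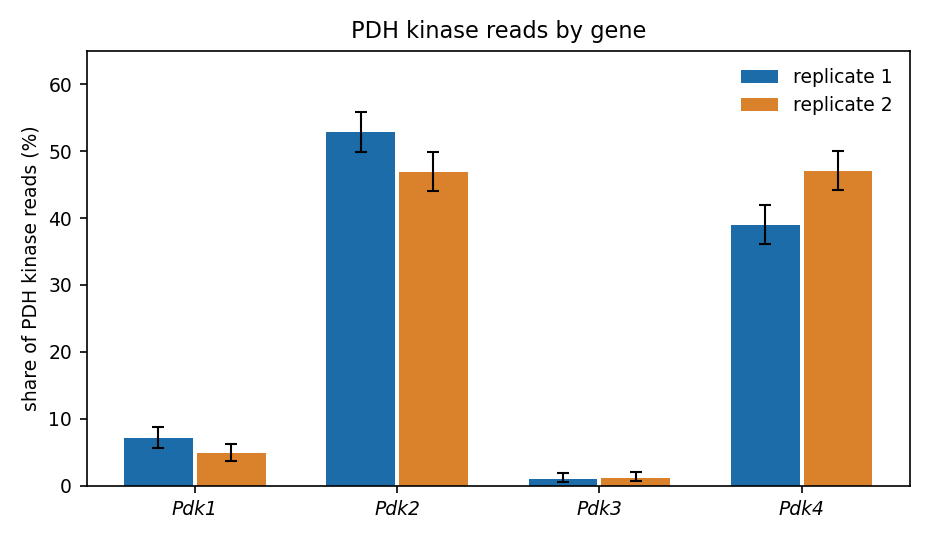
Share of the reads of Pdk1, Pdk2, Pdk3 and Pdk4 that each gene took, in percent, in replicate 1 (left bars) and replicate 2 (right bars), with exact 95% intervals of counting error as error bars. Pdk2 stands at 52.9% and 46.9% and Pdk4 at 38.9% and 47.1%, while Pdk1 and Pdk3 stay below 10%.

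The 10 genes summed to 6927 CPM in replicate 1 and 6882 in replicate 2, or 6905 ± 31.6 (SD, n = 2). By mean CPM the order was Pdha1 (1747 ± 122), Dlat (1481 ± 5.18), Pdhb (1010.4 ± 56.1), Dld (713 ± 31.6), Pdk2 (638 ± 75.0), Pdk4 (548 ± 55.0), Mpc2 (372 ± 78.9), Mpc1 (304 ± 23.9), Pdk1 (76.8 ± 23.2) and Pdk3 (14.5 ± 0.795), each with the SD over 2 libraries. Ranges over the libraries overlapped between Dld and Pdk2, between Pdk2 and Pdk4 and between Mpc2 and Mpc1, so these neighbours did not differ beyond their spread. The widest step, 5.28-fold, was that between Pdk1 and Pdk3, and the next, 3.95-fold, that between Mpc1 and Pdk1. Per kb of model, on the CPM scale, the order became Pdhb (675 ± 40.9), Pdha1 (618 ± 43.0), Dlat (378 ± 10.2), Mpc2 (368 ± 74.3), Mpc1 (323 ± 23.8), Pdk2 (289 ± 31.4), Dld (285 ± 12.7), Pdk4 (162 ± 16.7), Pdk1 (15.9 ± 5.61) and Pdk3 (6.88 ± 0.372). On that scale the ranges over the libraries overlapped between Pdhb and Pdha1, between Dlat and Mpc2, between Mpc2 and Mpc1, between Mpc1 and Pdk2 and between Pdk2 and Dld, so these neighbours did not differ beyond their spread. In both libraries the carrier genes stood above Dld per kb and below it in CPM. With the reads of the copy counted as Mpc1, by position, Mpc1 would stand at 689 CPM in replicate 1 and 721 in replicate 2. Dld stood at 735 and 691 CPM in the same order, and Mpc2 at 316 and 427. The place of Mpc1 in CPM and its overlap with Mpc2 thus hold only without those reads.

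**Figure D3:**
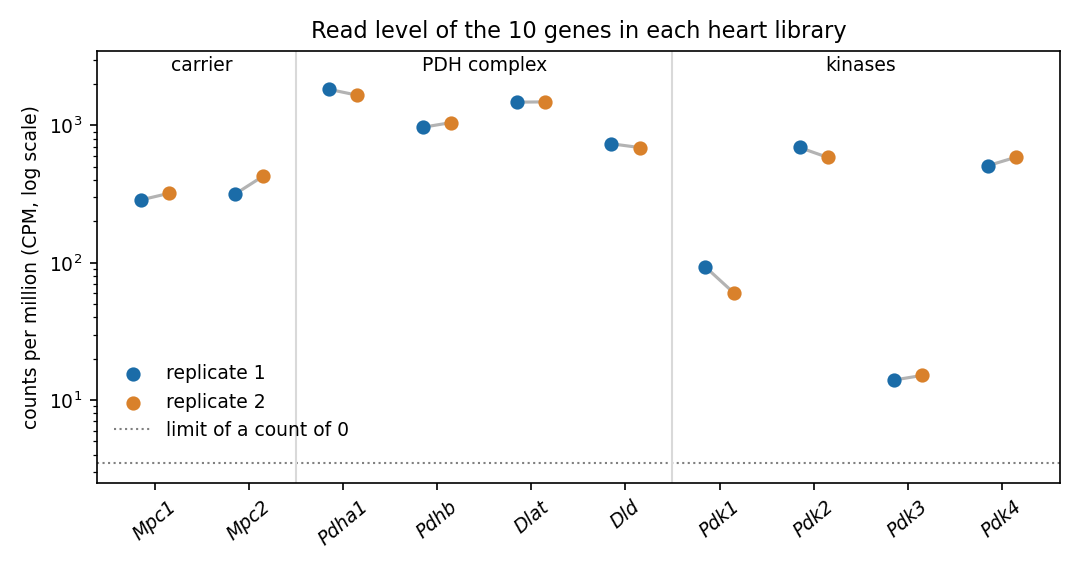
Level of each gene in CPM on a log axis, replicate 1 left of replicate 2, with genes grouped as carrier, complex and kinases and the dotted line at the larger of the limits for a count of 0. Pdha1 is highest at 1833 and 1661 CPM and Pdk3 lowest at 14.0 and 15.1, above the line.

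Mpc2 was the only gene of the set that differed between the libraries past the threshold. Its level was lower in replicate 1, with 316 CPM against 427 in replicate 2, a log2 ratio of -0.44 (95% interval -0.66 to -0.21; two-sided exact binomial test with Benjamini-Hochberg adjustment over 9433 genes, adjusted p = 0.0113). Under the 6 other scalings, read classes and filters the adjusted p of the exact binomial test ranged from 0.0133 to 0.0181. That makes 1 of 10 genes, against a background of 1.72% of the 9433 annotated genes with 10 or more reads, 0.933% being higher in replicate 1 and 0.784% lower. An unadjusted p under 0.05 was found for 5 of the 10, and for 888 of the 9433 genes tested. Both backgrounds cover genes from 10 reads up and were not matched to the read level of the 10 genes. The median log2 ratio of the 10 genes was -0.06, beside -0.0047 over all genes tested. The test compares these libraries and not conditions, and n is 1 library on each side.

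The other 9 genes did not pass. Pdk1 had the largest ratio, at a log2 value of 0.63 (0.11 to 1.14; exact binomial test, adjusted p = 0.279). Pdk2 stood at 0.24 (exact binomial test, adjusted p = 0.165) and Pdk4 at -0.21 (exact binomial test, adjusted p = 0.405). On annotated models alone, Pdk2 did pass, with a log2 ratio of 0.32 (exact binomial test, adjusted p = 0.0277). Pdha1 stood at 0.14, Dld at 0.09, Dlat at -0.0071, Pdhb at -0.11, Pdk3 at -0.11 and Mpc1 at -0.16. On annotated models alone the sign turned for Mpc1, where 6 and 5 reads were left, and for Dlat, where the ratio was 0.010.

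**Figure D4:**
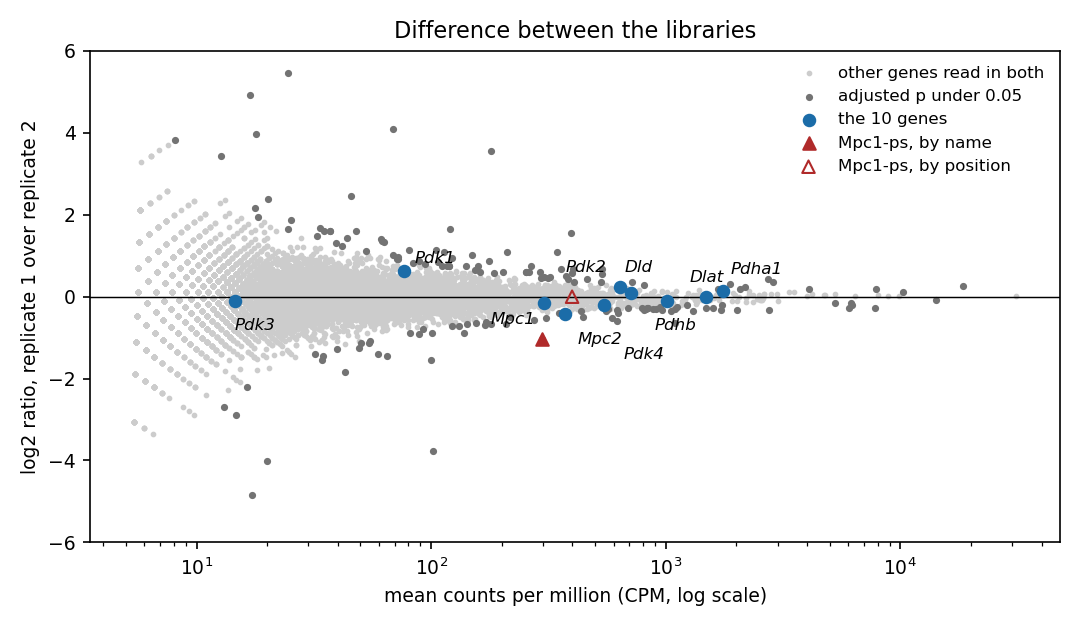
Log2 ratio of replicate 1 over replicate 2 against mean CPM (log axis) for every tested gene with reads in both libraries, with genes past the adjusted threshold in dark grey, the 10 genes in blue and Mpc1-ps as triangles. The 10 genes lie between -0.44 (Mpc2) and 0.63 (Pdk1), and Mpc1-ps lies at -1.03 by name (filled) and near 0 by position (open).

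Apart from Mpc1, nearly all usable reads of each gene were on 1 annotated form. The leading form was an annotated transcript of the gene, with a mean share of usable reads of 98.7% for Pdha1, 99.2% for Dlat, 99.6% for Pdhb, 99.7% for Mpc2, 99.8% for Pdk4 and 100% for Dld, Pdk1 and Pdk2. Incomplete models are left out of usable reads, and with them counted the share of Pdk1 was 85.6%, the lowest of the 9 genes with enough reads. The median leading share over all 4348 genes was 98.2%. All usable reads of Pdk3, 10 in replicate 1 and 14 in replicate 2, were on 1 annotated transcript, which was too few for the test. The difference in leading share between the libraries passed for 0 of the 9 genes tested (Fisher's exact test, adjusted p = 1 for each, with the lowest unadjusted p, 0.259, for Pdhb). For Dld, Pdk1 and Pdk2 all usable reads were on 1 form in both libraries, so their tests could not pass. Over all genes, 1 of 4348, or 0.023%, passed.

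Further forms with at least 5 reads in each library were few and differed from the leading one by a few bases at 1 junction. Pdha1 had a pair of them at the annotated intron 160127729 to 160128464. In the more frequent, with 11 reads in each library, the intron ran 160127723 to 160128460. In the other, with 9 reads in replicate 1 and 8 in replicate 2, it ran 160127729 to 160128460. Dlat had 1, with 9 reads in replicate 1 and 12 in replicate 2, in which the intron 50649767 to 50650746 replaced the annotated 50649774 to 50650750. The sequence at these introns was not analysed here. No internal exon of the 10 genes was included at between 5% and 95%, among 1550 such exons of 905 genes, of which 0 (0%) differed between the libraries by Fisher's exact test after adjustment and 67 had an unadjusted p under 0.05.

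The share of reads on annotated models was 93.1% for Pdha1, 95.6% for Pdhb, 95.4% for Dlat, 95.1% for Dld and 99.0% for Mpc2, averaged over the libraries, against 78.8% over all annotated genes. Pdk1, with the longest leading model of the set at 5185 bases, had 77.0% ± 2.85 (SD, n = 2). Incomplete models, which hold part of an annotated chain of introns, took 13.0% ± 4.65 of Pdk1 reads, against 8.94% over all genes and between 0% and 4.36% for the other 9 genes. Pdk4 had the largest genomic share, 8.85% ± 2.58, against 3.24% over all genes.

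**Figure D5:**
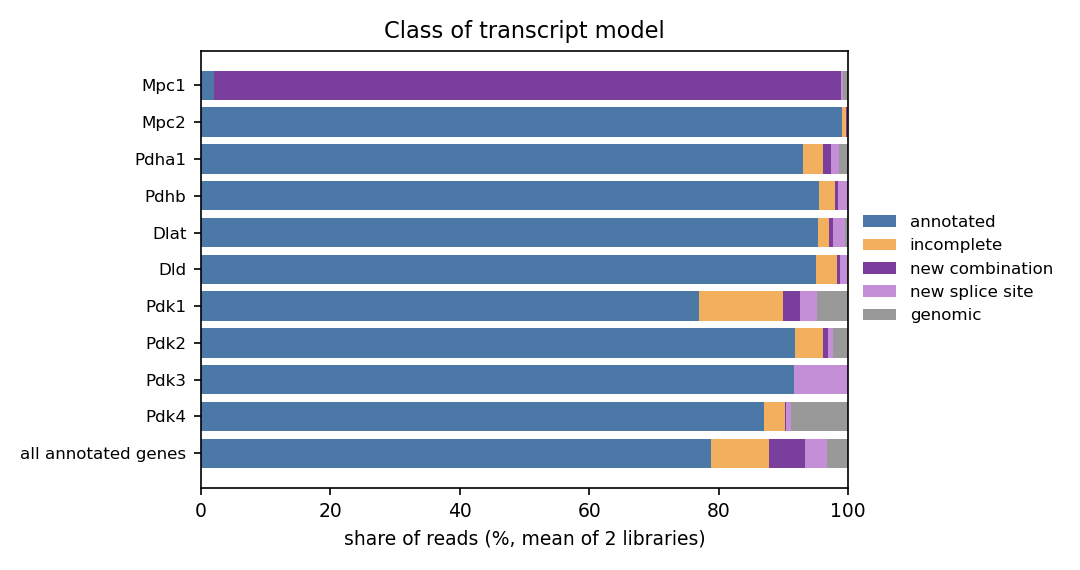
Share of the reads of each gene in 5 classes of transcript model, in percent and averaged over the 2 libraries, with all annotated genes as the last row. Mpc1 is almost wholly a new combination of known exons (96.9%), where the other 9 genes are at least 77.0% annotated.

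The partners of these genes were read alongside them, in lists drawn up for this set with 35 genes in all. Of these, 27 were detected and 28 had enough reads for the test between the libraries. None passed in either direction, against 1.72% of all genes tested, and 6 had an unadjusted p under 0.05, against 888 of the 9433 genes tested. Their median log2 ratio was -0.03. Among partners and phosphatases of the complex, 4 of 5 were detected. Pdhx, which tethers the DLD protein to the core, had 424 CPM in replicate 1 and 382 in replicate 2. Pdp1 and Pdp2, the phosphatases that reverse the kinases, had 28.0 and 3.50 CPM in replicate 1 and 41.0 and 7.55 in replicate 2. Pdpr, the regulatory subunit, had 16.3 CPM in replicate 1 and 4.32 in replicate 2. Pdha2, the testis form of the alpha subunit, was not detected. In reads, the 1122 of the kinases in replicate 1 stood beside 24 of Pdp1 and 3 of Pdp2, and the 1156 in replicate 2 beside 38 and 7.

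Of 6 genes that make and attach lipoic acid, the cofactor on Dlat, 5 were detected. In replicates 1 and 2 they were led by Lias, the lipoic acid synthase, at 78.1 and 110 CPM, and Mcat, of mitochondrial fatty acid synthesis, at 75.8 and 89.6. Of 10 genes of other complexes that use Dld or a 2-oxoacid, 6 were detected. The highest in replicates 1 and 2 were Ogdh, of the 2-oxoglutarate dehydrogenase, at 1325 and 1288 CPM, and Dlst, the core of that complex, at 417 and 377. Bckdk, the kinase of the branched-chain complex and a relative of the PDK family, had 209 CPM in each library, and its phosphatase gene Ppm1k had 2.33 CPM in replicate 1, under the limit, and 11.9 in replicate 2.

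All 7 genes of other pyruvate routes were detected. Ldha and Ldhb, the lactate dehydrogenase subunits that convert pyruvate and lactate, had 3049.9 CPM in replicate 1 and 2905 in replicate 2, and 2509 in replicate 1 and 2657 in replicate 2, each above every gene of the set in CPM. Pcx, the carboxylase that makes oxaloacetate from pyruvate, had 17.5 CPM in replicate 1 and 27.0 in replicate 2. For transport across the plasma membrane 4 of 5 genes were detected, and in replicates 1 and 2 the highest were Bsg, the chaperone of the monocarboxylate transporters, at 2907 and 3132 CPM and Slc16a1, a transporter of lactate and pyruvate, at 121 and 115.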

How the data were processed

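The 2 heart libraries were analysed from tables of reads per transcript model and the matching model files. The deposited values are raw read counts, which the authors made for each library alone on mm10 with GENCODE M21, and models were named by TALON, per the file headers. Not given in the sources used here are the aligner, its filters, and how reads with several near-identical targets were placed.

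Reads were summed per gene over every class but genomic, without spike-ins, and scaled to totals of 858071 and 926560 reads. Each gene whose reads came to 10 or more over both libraries was compared between them by an exact binomial test, two-sided. Shares of forms were set against each other by Fisher's exact test from 20 usable reads per library, and exons likewise at a mean inclusion of 5 to 95%. Unannotated forms were matched by intron chain. Adjustment followed Benjamini and Hochberg over all genes or exons tested, with a threshold of 0.05. Intervals are exact at 95%. With 1 library on each side, a count model with replicate spread could not be fitted. Scripts ran in Python 3.11.15 with scipy 1.17.1 and were tested on simulated data. TMM totals came from edgeR 4.0.16, size factors from DESeq2 1.42.0, and copies were sought with BLAST 2.17.0 among GENCODE pseudogenes. Coordinates are on mm10 and count from 1.

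The genes and lists were chosen with earlier results of these data known. Named are all 10 genes, each leading form and any other usable form with at least 5 reads in both libraries, every exon within the limits, and of the partner lists the 2 highest by mean CPM. Pdp2, Pdpr, Pcx and the undetected Pdha2 were named outside this rule, after their values were seen, as were the copies and the genes with small exons. The search for copies, the count of the copy as Mpc1 and the count of small exons were added after the data had been seen.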

Additional observations from a re-analysis of the deposited data

Results flagged for a closer look

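Reads that the levels leave out were found at several of these genes, above the limit of 3 reads. In the genomic class, Pdk4 had 33 reads in replicate 1 and 65 in replicate 2. In replicate 1 these lay on a model of 844 bases, 5483351 to 5484194 of chromosome 6, at the 3′ end of the gene, and in replicate 2, 63 of them lay on a model whose file entry is the single position 5483351. With genomic reads counted, Pdk4 averaged 583 CPM, against 548 without, and its log2 ratio was -0.26 (exact binomial test, adjusted p = 0.144). Pdha1 had 21 genomic reads in replicate 1 and 22 in replicate 2, Pdk2 had 11 and 16 in replicates 1 and 2, and Dlat had 4 and 8. Pdk1 had 6 in replicate 2. At Mpc1-ps, 168 reads in replicate 1 and 370 in replicate 2 carried its name, and 174 further reads in replicate 1 lay on the unannotated model beside it. The cause of that difference in naming was not tested.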

How the results depend on the processing

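Of 60 log2 ratios of the 10 genes recomputed under 6 other settings, 57 kept their direction and their side of the threshold. With annotated models alone, that of Pdk2 passed and those of Mpc1 (0.39) and Dlat (0.010) turned sign. By position, with totals that count genomic reads too, that of Mpc1-ps was 0.0033, against -1.03 by name. With the totals behind CPM, the Mpc1-ps ratio by position was -0.0027. The summed level of the 10 genes, 6905 CPM, became 6788 with genomic reads counted or by position, and 8030 on annotated models alone, where the totals are smaller too. Divided by model length, the kinase shares became 3.33% for Pdk1, 61.0% for Pdk2, 1.46% for Pdk3 and 34.2% for Pdk4, Pdk2 took 64.1% of Pdk2 and Pdk4 together, and Pdha1 took 47.8% of Pdha1 and Pdhb. The Mpc1 share of the carrier became 1.73% on annotated models alone and 65.7% with the copy counted. The kinase share of the 10 genes, 18.5%, became 19.3% with genomic reads counted or by position, 19.1% on annotated models alone and 15.2% per length. Genes whose leading share differed numbered 1, but 31 with incomplete models counted and 6 with unannotated forms of any count. Exons whose inclusion differed numbered 0, but 7 with unannotated forms of any count. The cause of these changes was not tested. Depth limits Pdk3 most, with 12 and 14 reads. No paired analysis was possible because there was 1 group.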
